A study of Mus musculus with 24 samples.

Results

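The genes described here act in myoblast fusion and in adhesion between muscle cells. They are Mymk, Cdh15, Myof, Dysf, Jam2, Jam3 and Cav3, 7 of the 14064 genes tested. They were chosen by symbol, and each was read by 1 probe set, so no choice between probe sets was needed. Expression was measured on 24 arrays hybridised with amplified RNA of cells that flow cytometry had sorted from mouse tibialis anterior, a muscle of the lower leg. Muscles were taken before injury (day 0) and on days 2, 4 and 8 after an injection of cardiotoxin, a snake venom toxin that destroys muscle fibres and is used to start regeneration. Satellite cells, the stem cells of muscle, were sorted as CD45-, Sca1-, CD31- and alpha7-integrin+ cells with positive or low CD34, and endothelial cells as CD45-, Sca1+, CD34+ and CD31+ cells. Each cell type had 3 biological replicates on each day, which gave 8 groups. The labels used here name no strain, age, sex, transgene or other treatment, and they do not say whether a replicate was 1 mouse or a pool.

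During regeneration satellite cells divide, and their progeny, the myoblasts, withdraw from the cell cycle, line up, adhere and fuse into multinucleated fibres. Mymk encodes myomaker, a membrane protein of myoblasts that is required for fusion and works together with the small protein myomixer. Adhesion before fusion involves cadherins such as M-cadherin, which Cdh15 encodes, and the junctional adhesion molecules that Jam2 and Jam3 encode, which bind each other between neighbouring cells and are also components of endothelial junctions. Myof and Dysf encode myoferlin and dysferlin, calcium-binding membrane proteins of the ferlin family with roles in membrane fusion and repair. Cav3 encodes caveolin-3, the muscle form of the protein that builds caveolae.

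Values are log2 intensities after RMA, a procedure that corrects background, normalizes the arrays to each other and gives 1 value per probe set. A gene was called when its adjusted p (limma, two-sided, Benjamini-Hochberg over all 14064 genes) was under 0.05 and the groups differed by at least 1 on the log2 scale, and "rose" and "fell" are used only of called genes. Genes entered the test if they were above the array median on at least 3 arrays, and the 7 genes entered. Myof, Dysf, Jam2 and Jam3 were above the median on 24 of 24 arrays, Cdh15 on 19 and Mymk on 12. Cav3 was above it on 6 arrays, the 3 satellite cell arrays of day 4 and the 3 of day 8, so it entered through the groups in which it was high. A fold is printed only where both group means lay at least 1 above their array medians, since dim probe sets understate differences.

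Array medians ran from 4.11 to 4.40, and arrays correlated with r of 0.863 to 0.957 within groups and 0.645 to 0.949 between groups. Groups follow the titles and source names, which match for 24 of 24 samples. A further pair of label fields goes against them, for cell type in 12 samples and for time in 18. Satellite cell arrays of day 0 had a mean of 8.81 to 8.97 over 8 satellite cell markers, against 4.44 to 4.82 on the endothelial arrays of that day. The endothelial list of 10 genes averaged 6.33 to 6.47 on the satellite cell arrays of day 0 and 9.89 to 10.25 on the endothelial ones. The satellite cell arrays of day 0 also carried a list of 10 pericyte and smooth muscle markers at 9.50 to 10.14, above their satellite cell list, against 6.85 to 7.81 on the endothelial arrays, and 9 of the 10 were called higher. Between the cell types 17% of all genes tested were called on day 0, and 7.59% were higher in satellite cells. On the same day 7 fibro-adipogenic markers averaged 7.22 to 7.57, against 4.25 to 4.42 on endothelial arrays, with 5 called higher. Of these 7, 2 had means below the array median in satellite cells of day 0, Pi16 (3.58) and Lum (3.21). Pdgfra, the other gene of the fixed list of 8, was too dim to enter the test (3.01, 2.94 and 3.12 on the satellite cell arrays of day 0). Each comparison of satellite cells with day 0 has these arrays as its baseline, and the part of other cells in them was not tested. The satellite cell arrays of day 2 stood apart. Of 8 satellite cell markers 8 fell against day 0 and 0 rose, with a median difference of -3.38, and Pax7, the defining transcription factor of satellite cells, was at 4.67, 5.70 and 5.16 on day 2, against 9.80, 8.76 and 9.28 on day 0. Of 12 leukocyte markers 12 rose, with a median difference of 6.31, although the sort gated on CD45- cells, and the list averaged 9.22 to 10.78 on day 2, against 3.52 to 4.02 on day 0. Of these 12 markers 9 had means below the array median in satellite cells of day 0. Ptprc, which encodes CD45, was at 9.82, 8.01 and 9.67 on day 2, against 3.13, 2.97 and 2.81 on day 0. Mki67, a marker of dividing cells, was at 6.65, 7.78 and 6.65 on day 2, against 4.49, 4.73 and 4.83 on day 0. Of 10 endothelial markers 6 rose, of 10 pericyte and smooth muscle markers 10 fell (list means of 6.55 to 8.13, against 9.50 to 10.14), and of 7 fibro-adipogenic markers 1 rose and 4 fell. In the same comparison 20.5% of all genes tested were called either way and 9.67% lower. The pericyte list stood at 7.29 to 7.56 on day 4, with 7 of 10 lower than on day 0, and at 8.70 to 9.32 on day 8, with 3 lower. On days 4 and 8, 12% and 6.38% of all genes were called either way. Replicate 2 of day 2 differed from its group, with a mean of 8.87 over the endothelial list, against 6.81 and 7.25 on the other 2 arrays. Values of day 2 satellite cells therefore come from libraries with little signal of satellite cell markers, and the part of other cells in them was not tested. In these bulk samples fewer cells of a type and less RNA per cell cannot be told apart.

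**Figure D1:**
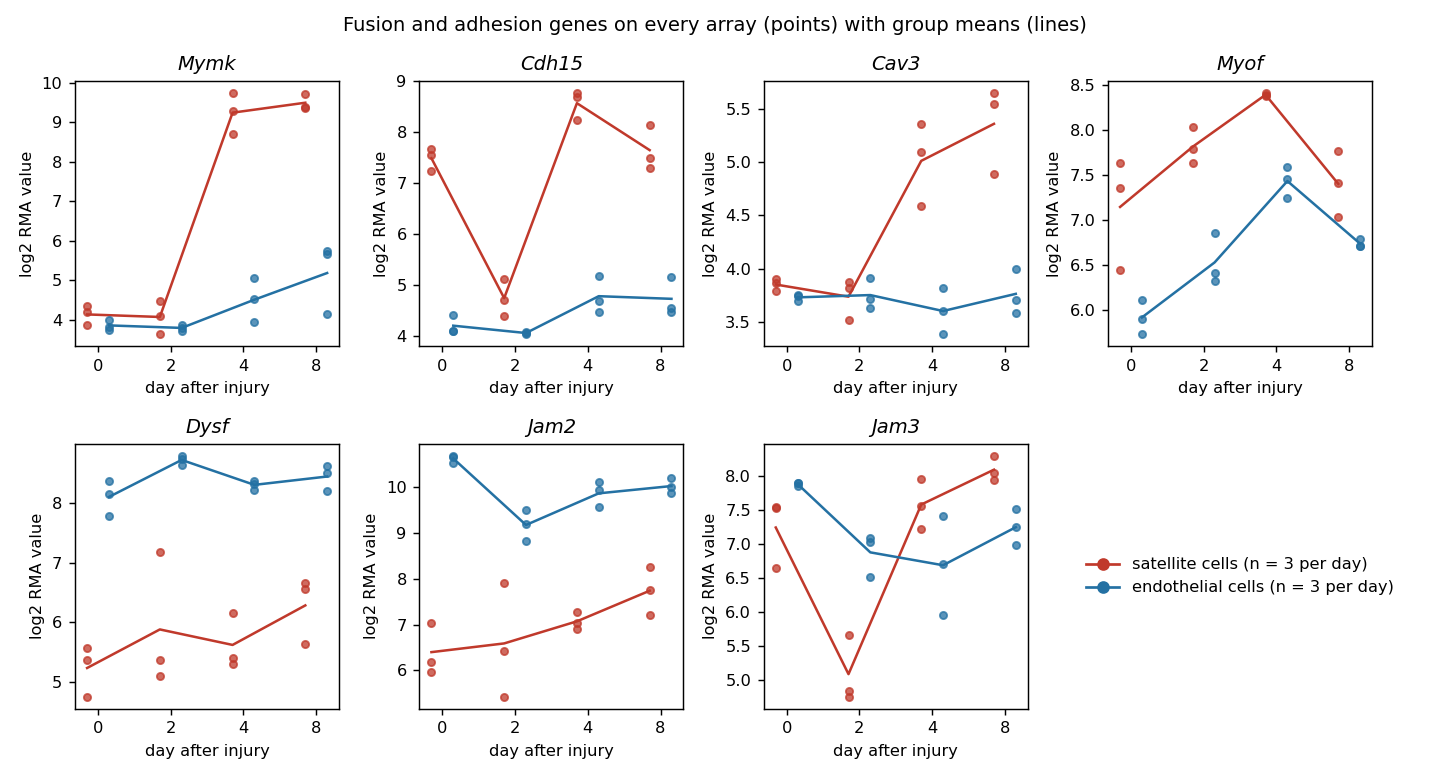
The log2 RMA value of each of the 7 genes (vertical axes, scaled separately) is plotted for every array by day after injury (horizontal axes, days evenly spaced), with satellite cells in red, endothelial cells in blue and lines through the means of 3 arrays. Mymk and Cav3 were highest in satellite cells of days 4 and 8, Cdh15 and Jam3 dipped in satellite cells on day 2, and Dysf and Jam2 were higher in endothelial cells on each day.

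Mymk, the fusogen of the set, lay near the array median in satellite cells before injury and on day 2, and far above it on days 4 and 8. Its log2 values in satellite cells were 3.86, 4.35 and 4.21 on day 0, 3.64, 4.11 and 4.47 on day 2, 9.73, 8.71 and 9.27 on day 4, and 9.37, 9.38 and 9.72 on day 8. The arrays of days 4 and 8 thus lay above those of days 0 and 2 without overlap, by more than 4 log2 units. The difference from day 0 was -0.06 (SE 0.35, adjusted p = 0.926) on day 2, 5.10 (SE 0.35, adjusted p = 3.65e-09) on day 4 and 5.35 (adjusted p = 4.02e-09) on day 8. Between day 4 and day 2 it was 5.17 (adjusted p = 2.58e-09), and between day 8 and day 4 0.25 (adjusted p = 0.83). Mymk was thus higher on day 4 than on day 2, and the later difference did not pass the threshold. The day 2 arrays had little signal of satellite cell markers (list means of 5.25 to 5.52, against 8.81 to 8.97 on day 0). Their Mymk values need not be those of myogenic cells, and when such cells first expressed Mymk was not tested.

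In endothelial cells Mymk was at 3.83, 3.75 and 4.01 on day 0, 3.73, 3.86 and 3.80 on day 2, 5.06, 3.94 and 4.53 on day 4, and 4.16, 5.67 and 5.73 on day 8. The difference between day 8 and day 0 was 1.32 (SE 0.35, adjusted p = 0.0527), which missed the threshold, and day 8 replicate 1 lay below the other 2 arrays. Without that array the difference was 1.84 (adjusted p = 0.00307) and called, and the call also appeared without satellite cell day 2 replicate 1 or 2, satellite cell day 4 replicate 1 or 2, or endothelial day 4 replicate 1 or 2, and in 2 other settings, with adjusted p between 0.0263 and 0.0499. Myog, the transcription factor myogenin that marks differentiating myoblasts, was at 5.40, 7.00 and 7.39 on these 3 arrays and at 5.10, 4.85 and 4.76 on the endothelial arrays of day 0. The mean over 9 myocyte markers ran from 4.59 to 5.54 in endothelial cells of day 8, against 4.00 to 4.45 on day 0, and of these markers 2 rose. The fibro-adipogenic list averaged 5.34, 6.20 and 5.96 on the same arrays, against 4.25 to 4.42 on day 0, and 3 of its 7 genes rose. In endothelial cells 2.05% of all genes were called either way on day 8. The share of myogenic or fibro-adipogenic cells in the endothelial sort was not tested.

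In the order of the 8 group means, satellite cells of days 8 and 4 led and did not differ beyond their spread. The next group, endothelial cells of day 8, lay 4.05 below satellite cells of day 4 (adjusted p = 6.78e-08), and no neighbours further down were called different. Satellite cells exceeded endothelial cells by 4.73 on day 4 and 4.31 on day 8 (adjusted p = 1.12e-08 and 6.31e-08), and by 0.28 on day 0 and 0.28 on day 2 (adjusted p = 0.657 and 0.698). The response itself differed between the cell types: satellite cells gained 4.45 more than endothelial cells by day 4 (SE 0.50, adjusted p = 1.09e-05) and 4.03 more by day 8 (adjusted p = 8.95e-05).

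Cav3, the caveolin of muscle, followed a like course at a smaller size. Its log2 values in satellite cells were 3.90, 3.86 and 3.79 on day 0, 3.87, 3.51 and 3.82 on day 2, 5.10, 4.59 and 5.36 on day 4, and 4.89, 5.65 and 5.55 on day 8. The arrays of days 4 and 8 lay above all of days 0 and 2. In endothelial cells it lay between 3.38 and 3.99 on all 12 arrays, below the array median throughout. It rose in satellite cells by 1.17 on day 4 (SE 0.22, adjusted p = 0.00078) and 1.51 on day 8 (SE 0.22, adjusted p = 0.00011) against day 0. Without satellite cell day 4 replicate 3 the day 4 difference was 0.99, just short of 1, with an adjusted p of 0.00731. Between days 8 and 4 the difference was 0.35 (adjusted p = 0.547). Since Cav3 passed the filter on low values only through its arrays of days 4 and 8, the test was also read without that filter, where the adjusted p was 0.000683 on day 4 and 8.89e-05 on day 8. The mature myofibre markers moved with it: of 12, 4 rose in satellite cells on day 4 and 8 on day 8, where 6.53% and 4.38% of all genes were called higher. Their list averaged 7.72, 10.13 and 10.18 on the arrays of day 8 on which Cav3 was 4.89, 5.65 and 5.55, against 6.93 to 7.34 on day 0. Over the 12 satellite cell arrays Cav3 correlated with this list at r = 0.78 (0.71 to 0.82 on leaving out each array) and Mymk at r = 0.69 (0.64 to 0.75), and the part of myofibre RNA in either gene was not tested.

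Satellite cells exceeded endothelial cells in Cav3 by 1.42 on day 4 (adjusted p = 8.21e-05) and 1.60 on day 8 (adjusted p = 2.18e-05). Without the filter on low values the adjusted p was 7.38e-05 and 1.89e-05. On days 0 and 2 the differences were 0.12 and -0.02 (adjusted p = 0.77 and 0.979). The gain over day 0 was larger in satellite cells by 1.29 on day 4 (SE 0.31, adjusted p = 0.0187) and by 1.48 on day 8 (adjusted p = 0.0119), with adjusted p of 0.0176 and 0.0108 without the filter. The day 4 value passed the threshold with all 24 arrays; it was 1.19 (adjusted p = 0.058) without endothelial day 4 replicate 2 and 1.12 (adjusted p = 0.0577) without satellite cell day 4 replicate 3. In the order of group means satellite cells of day 8 and day 4 came first and were not called different, the step down to satellite cells of day 0 was the 1.17 given above, and the steps among the other 6 groups were not called.

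Of the 7 genes, 4 had a promoter in the RefSeq table (Cdh15, Myof, Dysf and Cav3, with 2 start sites for Dysf). The 250 bases before each start site were searched on both strands for CAGCTG and CAGGTG, forms of the E-box that myogenic factors such as MyoD and myogenin can bind. They were also searched for CTA and TAG with any 4 bases between them. This pattern resembles the A- and T-rich sites bound by MEF2, but it matches other sequences and misses some MEF2 sites, so it does not count MEF2 sites. Of the 5 windows 4 held none of the 3. The Cav3 window held 1 CAGCTG, with its first base at position -106 from the start site, and no other motif overlapped it. Among 32851 windows of the same length in the table, 13% held CAGCTG, 17.2% CAGGTG and 3.2% the CTA and TAG pattern, so 1 match is a description only. The windows of Cav3 (chr6:112459255-112459504, plus strand, GRCm38.p6) and of Cdh15 (chr8:122848124-122848373, plus strand, GRCm38.p6) are shown because both genes rose in satellite cells on day 4 while only one window holds a motif; capitals mark CAGCTG.
Cav3: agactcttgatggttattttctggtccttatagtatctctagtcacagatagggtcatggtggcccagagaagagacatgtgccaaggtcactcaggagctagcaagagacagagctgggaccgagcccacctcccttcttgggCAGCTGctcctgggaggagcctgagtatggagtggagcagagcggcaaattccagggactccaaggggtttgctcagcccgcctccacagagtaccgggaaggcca
Cdh15: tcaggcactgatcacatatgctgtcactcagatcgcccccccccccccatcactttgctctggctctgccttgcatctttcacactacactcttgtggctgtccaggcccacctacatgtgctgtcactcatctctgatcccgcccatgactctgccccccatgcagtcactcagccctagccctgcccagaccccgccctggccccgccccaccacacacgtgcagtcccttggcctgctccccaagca

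Cdh15, which encodes M-cadherin, was high in satellite cells before injury, fell on day 2 and was highest on day 4. The values in satellite cells were 7.67, 7.25 and 7.57 on day 0, 4.72, 5.13 and 4.40 on day 2, 8.25, 8.77 and 8.70 on day 4, and 8.15, 7.31 and 7.50 on day 8. No array of day 2 reached those of any other day, and the arrays of day 4 lay above those of day 0. Against day 0 it fell by 2.74 on day 2 (SE 0.26, adjusted p = 1.04e-07) and rose 2.11-fold on day 4 (log2 1.08, SE 0.26, adjusted p = 0.00535). The rise on day 4 was 0.96 without satellite cell day 0 replicate 2 and 0.98 without satellite cell day 4 replicate 2, both short of the limit of 1, with adjusted p of 0.0313 and 0.0295. On day 8 the level was 7.65 ± 0.44, against 7.49 ± 0.22 on day 0 (SD, n = 3 each; difference 0.16, adjusted p = 0.778).

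Cdh15 was 3.82 higher on day 4 than on day 2 (adjusted p = 2.34e-09), and the difference between days 8 and 4 was -0.92 (adjusted p = 0.0759). The last was -1.17 (adjusted p = 0.0178), and called, without satellite cell day 8 replicate 1. Beside the dip of day 2 the mean of the 8 satellite cell markers was 5.25 to 5.52, against 8.81 to 8.97 on day 0. Over the 12 satellite cell arrays Cdh15 correlated with this mean (Pearson r = 0.82, between 0.75 and 0.88 on leaving out each array), given as a description of arrays that share days. It also correlated at r = 0.72 with the myocyte list, 0.57 with the fibro-adipogenic list and -0.65 with the leukocyte list. Whether the dip of Cdh15 differs from that of the markers was not tested.

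Endothelial cells had Cdh15 at 4.41, 4.11 and 4.10 on day 0, 4.08, 4.05 and 4.07 on day 2, 4.70, 4.47 and 5.19 on day 4, and 4.49, 5.16 and 4.56 on day 8. These values lie near the array median, and none of the 3 days was called against day 0 (adjusted p = 0.82, 0.219 and 0.383 in order of day). Over the 12 endothelial arrays Cdh15 correlated with the fibro-adipogenic list (r = 0.84, 0.79 to 0.91 on leaving out each array), the satellite cell list (r = 0.84, 0.77 to 0.90) and the myocyte list (r = 0.77, 0.75 to 0.86). The genes most like it there were Mfap5 (r = 0.93) and Fbln5 (0.91), both of the extracellular matrix, and Sft2d1 (0.91). Satellite cells were higher by 3.28 on day 0, 3.78 on day 4 and 2.92 on day 8 (adjusted p = 6.98e-09, 7.04e-09 and 1.04e-07). On day 2 the difference was 0.69 (adjusted p = 0.0823) and was not called. The response on day 2 was lower in satellite cells than in endothelial cells by 2.60 (SE 0.36, adjusted p = 8.52e-05 for the difference, coded as -2.60). In the order of means the satellite cells of days 4, 8 and 0 led without a called step between them, and satellite cells of day 0 lay 2.71 above endothelial cells of day 4 (adjusted p = 8.83e-08), below which no neighbours were called different.

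Jam2 and Jam3, the pair of junctional adhesion molecules, correlated within endothelial cells (r = 0.75) but were unlike each other in the comparison of the cell types. Jam2 was higher in endothelial cells on each day, whereas the cell types were called different in Jam3 on day 2 alone. Jam2 values in satellite cells were 5.98, 6.19 and 7.03 on day 0, 5.43, 7.91 and 6.43 on day 2, 7.28, 6.90 and 7.04 on day 4, and 7.20, 8.26 and 7.75 on day 8. In endothelial cells they were 10.52, 10.66 and 10.68 on day 0, 8.83, 9.19 and 9.49 on day 2, 9.56, 10.10 and 9.93 on day 4, and 10.00, 10.19 and 9.86 on day 8. No satellite cell array reached the lowest endothelial one. Satellite cells were lower 18.6-fold on day 0 (log2 -4.22, SE 0.42, adjusted p = 1.33e-07), 5.98-fold on day 2 (-2.58), 6.91-fold on day 4 (-2.79) and 4.86-fold on day 8 (-2.28), with adjusted p of 0.000207, 4.97e-05 and 0.000406 on the last 3 days.

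Jam2 in satellite cells rose 2.53-fold on day 8 against day 0 (log2 1.34, SE 0.42, adjusted p = 0.0487), a call at the edge of the threshold that was lost in 20 of the 24 fits without 1 array and in 3 of 8 other settings. Among the 24 fits it was kept without satellite cell day 0 replicate 3, day 2 replicate 1 or 2, or day 8 replicate 1. The adjusted p without satellite cell day 8 replicate 2 was 0.186 (log2 1.07), and without satellite cell day 0 replicate 1 it was 0.175 (log2 1.13). Endothelial markers moved with it: their list averaged 7.10, 8.26 and 7.93 on the satellite cell arrays of day 8, against 6.47, 6.47 and 6.33 on day 0, and 5 of 10 of its genes rose. In that comparison 4.38% of all genes were called higher. On day 2 replicate 2, where that list stood at 8.87, Jam2 was at 7.91, against 5.43 and 6.43 on the other arrays of the group. Over the 12 satellite cell arrays Jam2 correlated with the endothelial list (r = 0.77, 0.72 to 0.85 on leaving out each array) and the mature myofibre list (r = 0.74, 0.64 to 0.84), and the part of endothelial or myofibre RNA in the Jam2 values of satellite cells was not tested. Without replicate 2 of day 2, the difference between days 4 and 2 was 1.14 (adjusted p = 0.0216), against 0.48 (adjusted p = 0.533) with it.

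In endothelial cells Jam2 fell 2.73-fold on day 2 (log2 -1.45, SE 0.42, adjusted p = 0.0318), and its 3 arrays lay below those of day 0. The differences on days 4 and 8 were -0.76 and -0.60 (adjusted p = 0.35 and 0.601). The day 2 call was lost in fits without endothelial day 0 replicate 1, 2 or 3 or endothelial day 2 replicate 1 or 2, with differences of -1.28 to -1.50 and adjusted p of 0.0705 to 0.129. Leukocyte markers moved with it: their mean was 8.34, 6.06 and 6.86 on the endothelial arrays of day 2, against 3.80, 3.62 and 3.70 on day 0, while the endothelial list was at 9.69 to 9.96, against 9.89 to 10.25. Markers of other cells were lower on the same arrays, where 3.01% of all genes were called lower: 4 of 10 pericyte and smooth muscle markers fell, with list means of 5.41 to 6.73, against 6.85 to 7.81 on day 0, and 7 of 12 mature myofibre markers fell, with means of 4.71 to 5.21, against 6.40 to 7.17. The part of any of these cells in the Jam2 difference was not tested. The response of Jam2 was not called different between the cell types on day 2 (1.64, SE 0.59, adjusted p = 0.0765), day 4 (1.43, adjusted p = 0.209) or day 8 (1.94, adjusted p = 0.0971). The day 2 value was called without satellite cell day 0 replicate 3 (1.96, adjusted p = 0.0463) or satellite cell day 2 replicate 1 (2.22, adjusted p = 0.00855), and the day 8 value without satellite cell day 2 replicate 1 (adjusted p = 0.0356) or replicate 2 (adjusted p = 0.0152).

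Jam3 in satellite cells was at 6.64, 7.54 and 7.56 on day 0, 4.84, 5.66 and 4.75 on day 2, 7.97, 7.22 and 7.57 on day 4, and 8.05, 7.94 and 8.30 on day 8. Like Cdh15 it was low on day 2 alone. It fell by 2.16 on day 2 against day 0 (SE 0.33, adjusted p = 3.65e-05), was 2.50 higher on day 4 than on day 2 (adjusted p = 1.83e-05), and differed from day 0 by 0.34 on day 4 and 0.85 on day 8 (adjusted p = 0.567 and 0.118). The day 2 dip stood beside the fall of the 8 satellite cell markers and the rise of the 12 leukocyte markers given above. Over the 12 satellite cell arrays Jam3 correlated at r = 0.79 with the satellite cell list, 0.77 with the fibro-adipogenic list and 0.71 with the myocyte list. With the pericyte list it correlated at r = 0.57 and with the leukocyte list at -0.72. The part of any of these cells in the dip was not tested.

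In endothelial cells Jam3 was at 7.90, 7.90 and 7.86 on day 0, 6.52, 7.03 and 7.10 on day 2, 5.96, 6.70 and 7.41 on day 4, and 7.25, 7.52 and 6.98 on day 8. All 9 arrays after injury lay below the 3 of day 0. The difference was -1.01 on day 2 (adjusted p = 0.06), -1.20 on day 4 (SE 0.33, adjusted p = 0.0305, 2.29-fold lower) and -0.64 on day 8 (adjusted p = 0.419). The fall on day 4 was lost without endothelial day 4 replicate 1 (-0.83, adjusted p = 0.202) or replicate 2 (-1.20, adjusted p = 0.0769), and without endothelial day 0 replicate 1, 2 or 3 (-1.19 to -1.21, adjusted p = 0.0721 to 0.0862), and in the fit of the 2 groups alone (-1.20, adjusted p = 0.0892). The day 2 difference passed the threshold without satellite cell day 0 replicate 1, satellite cell day 2 replicate 2 or endothelial day 4 replicate 1 or 3, with adjusted p of 0.0362 to 0.043. The leukocyte list averaged 7.80, 6.28 and 5.56 on the endothelial arrays of day 4 in the order of replicates in which Jam3 was 5.96, 6.70 and 7.41. Over the 12 endothelial arrays Jam3 correlated with that list at r = -0.91 (-0.93 to -0.89 on leaving out each array) and Jam2 at r = -0.89 (-0.93 to -0.84), as a description without a test. With the pericyte list, of which 4 of 10 genes fell on day 4 as well (means of 5.26 to 6.59, with 2.22% of all genes called lower), Jam3 correlated at r = 0.72 (0.62 to 0.85) and Jam2 at r = 0.57 (0.49 to 0.85). With the mature myofibre list Jam2 correlated at r = 0.71 (0.65 to 0.78) and Jam3 at r = 0.50 (0.39 to 0.66), and with the endothelial list at r = 0.75 and 0.61.

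Between the cell types Jam3 was called on day 2, when satellite cells were lower by 1.79 (adjusted p = 0.000659). The difference was -0.64 on day 0, 0.89 on day 4 and 0.85 on day 8 (adjusted p = 0.187, 0.0678 and 0.0802), and the day 4 value was 1.26 (adjusted p = 0.0137) without endothelial day 4 replicate 3. In the order of means, endothelial cells of day 2 and day 4 stood next above satellite cells of day 2, and the step from endothelial cells of day 4 down to satellite cells of day 2 was the only called one (1.60, adjusted p = 0.00148). For Jam2 the only called step lay between endothelial cells of day 2 and satellite cells of day 8 (1.43, adjusted p = 0.0194). Responses of Jam3 on days 2, 4 and 8 differed between satellite and endothelial cells by -1.15, 1.54 and 1.49 (adjusted p = 0.119, 0.0686 and 0.108), none of them called. The day 2 value was called without satellite cell day 0 replicate 1 (-1.46, adjusted p = 0.0474) or satellite cell day 2 replicate 2 (-1.44, adjusted p = 0.0371), and the day 4 value without satellite cell day 2 replicate 2 (adjusted p = 0.0436) or endothelial day 4 replicate 3 (1.90, adjusted p = 0.0203).

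Of the ferlins, Myof was called higher in both cell types on day 4. Myoferlin values of satellite cells were 6.44, 7.63 and 7.35 on day 0, 7.79, 7.62 and 8.02 on day 2, 8.41, 8.37 and 8.39 on day 4, and 7.03, 7.76 and 7.40 on day 8. In endothelial cells they were 5.73, 6.11 and 5.90 on day 0, 6.85, 6.32 and 6.41 on day 2, 7.59, 7.24 and 7.46 on day 4, and 6.70, 6.70 and 6.79 on day 8. Day 4 held the highest mean in both series, and its arrays did not overlap those of day 0. Myof rose on day 4 in satellite cells 2.37-fold (log2 1.25, SE 0.25, adjusted p = 0.00138) and in endothelial cells 2.86-fold (log2 1.52, SE 0.25, adjusted p = 0.000579). The satellite cell rise was 0.90 (adjusted p = 0.0101), under the limit of 1, without satellite cell day 0 replicate 1, the lowest array of its group.

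On day 2 Myof differed from day 0 by 0.67 in satellite cells and 0.61 in endothelial cells (adjusted p = 0.052 and 0.146), and on day 8 by 0.26 and 0.82 (adjusted p = 0.61 and 0.0984). The response was not called different between the cell types on any day (0.06, -0.27 and -0.56 on days 2, 4 and 8, adjusted p = 0.95, 0.81 and 0.496). Between days 8 and 4 the satellite cell difference was -0.99 (adjusted p = 0.0466), short of the limit of 1, and it was -1.17 (adjusted p = 0.0497) without satellite cell day 8 replicate 2. Satellite cells were higher by 1.23 on day 0 (adjusted p = 0.000922) and 1.29 on day 2 (adjusted p = 0.00119). The day 0 difference was 0.98 without satellite cell day 0 replicate 2. On days 4 and 8 the differences of 0.96 and 0.66 were not called (adjusted p = 0.01 and 0.0732), and the day 4 value was 1.04 (adjusted p = 0.0169) without endothelial day 4 replicate 1. No neighbours in the order of the 8 means were called different. Leukocyte markers were above day 0 in both cell types on day 4, at 6.72 to 7.81 against 3.52 to 4.02 in satellite cells and 5.56 to 7.80 against 3.62 to 3.80 in endothelial cells. Over the 12 endothelial arrays Myof correlated with the leukocyte list at r = 0.63 (0.53 to 0.70 on leaving out each array), the fibro-adipogenic list at r = 0.65 (0.59 to 0.74) and the myocyte list at r = 0.65 (0.54 to 0.72). Over the 12 satellite cell arrays the values were 0.47 with the leukocyte list and 0.42 with the myocyte list. They were -0.62 with the pericyte list, -0.40 with the satellite cell list and -0.37 with the fibro-adipogenic list. The part of leukocytes or other cells in the rise was not tested.

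Dysf, which encodes dysferlin, was higher in endothelial cells throughout and passed the threshold against day 0 in neither cell type. Satellite cell values were 4.74, 5.57 and 5.37 on day 0, 5.35, 7.17 and 5.10 on day 2, 6.15, 5.40 and 5.30 on day 4, and 5.64, 6.65 and 6.55 on day 8. Endothelial values were 8.15, 8.38 and 7.78 on day 0, 8.80, 8.64 and 8.74 on day 2, 8.22, 8.38 and 8.32 on day 4, and 8.62, 8.51 and 8.21 on day 8. No satellite cell array reached the endothelial range. Satellite cells were lower by 2.88 on day 0 (SE 0.39, adjusted p = 9.38e-06), 2.85 on day 2 (adjusted p = 5.88e-05), 2.69 on day 4 (adjusted p = 4.13e-05) and 2.17 on day 8 (adjusted p = 0.000394), the last 3 being 7.21-fold, 6.46-fold and 4.49-fold. These differences carry a negative sign in satellite minus endothelial cells. In the order of means the 4 endothelial groups led, and the only called step was that of 1.82 from endothelial cells of day 0 down to satellite cells of day 8 (adjusted p = 0.00152).

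The day 8 difference of Dysf in satellite cells was 1.05 (SE 0.39, adjusted p = 0.106), with the 3 arrays of day 8 above those of day 0. It was called without satellite cell day 2 replicate 2 (adjusted p = 0.0176), an array that enters only through the shared estimate of the spread, and with array weights (1.03, adjusted p = 0.0307). The satellite cell values of Dysf moved with those of endothelial markers and, less closely, with those of mature myofibre markers. On day 8, Dysf was at 5.64, 6.65 and 6.55 where the endothelial list averaged 7.10, 8.26 and 7.93, and on day 2 replicate 2 it was at 7.17 where Pecam1, which encodes CD31, was at 10.78, against 5.35 and 5.10 on the other arrays, with Pecam1 at 8.66 and 9.17. Over the 12 satellite cell arrays Dysf correlated with the endothelial list at r = 0.90 (0.83 to 0.93 on leaving out each array). With the mature myofibre list it correlated at r = 0.54 (0.42 to 0.77), and that list averaged 7.72, 10.13 and 10.18 on the arrays of day 8. The part of endothelial or myofibre RNA in the Dysf values of satellite cells was not tested. In endothelial cells Dysf differed from day 0 by 0.62, 0.20 and 0.34 on days 2, 4 and 8 (adjusted p = 0.396, 0.874 and 0.79), and its response was not called different between the cell types (0.03, 0.18 and 0.71, adjusted p = 0.987, 0.931 and 0.598).

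**Figure D2:**
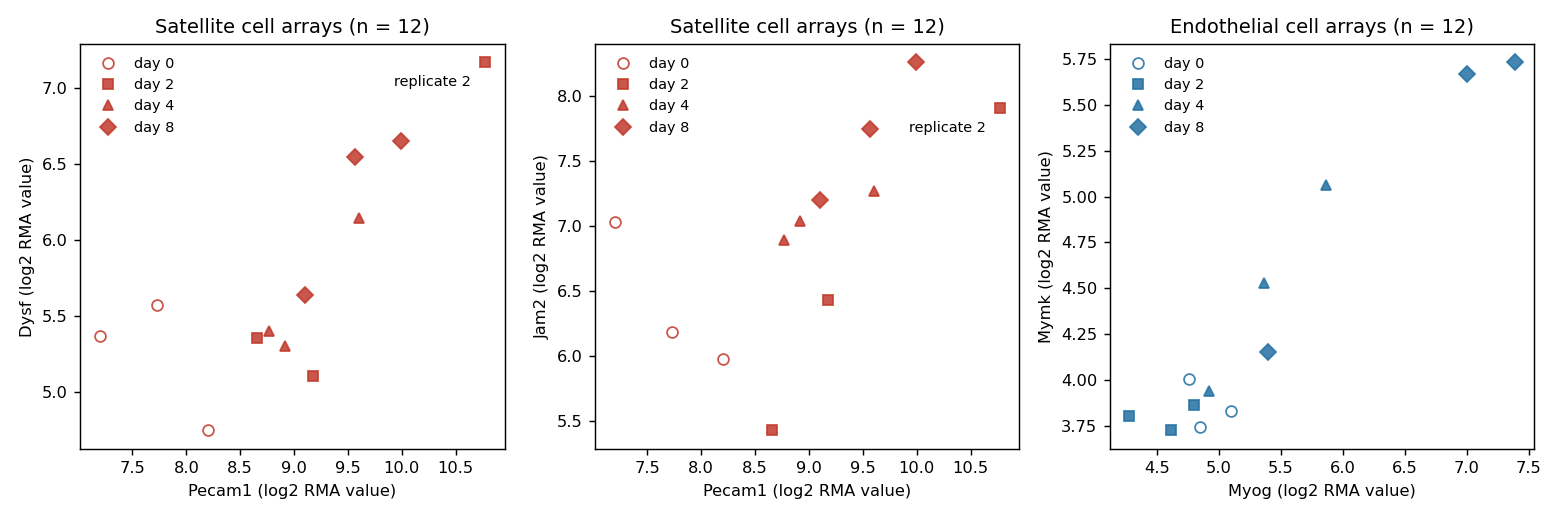
Each point is 1 array. The left and middle panels plot the log2 values of Dysf and Jam2 against that of Pecam1 on the 12 satellite cell arrays, and the right panel plots Mymk against Myog on the 12 endothelial arrays, with symbols for the day. Day 2 replicate 2 of satellite cells had the highest Pecam1 value, 10.78, and the highest Dysf value, 7.17, and the 2 endothelial arrays with Mymk at 5.67 and 5.73 had Myog at 7.00 and 7.39.

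Counted over the 7 genes, satellite cells on day 2 had 0 genes higher and 2 lower than on day 0, where 20.5% of all genes tested were called either way and 9.67% lower. On day 4 there were 4 higher (Mymk, Cdh15, Myof and Cav3) and 0 lower, with a background of 12% of all genes called and 6.53% called higher. On day 8 there were 3 higher (Mymk, Cav3 and Jam2) and 0 lower, with 6.38% called and 4.38% higher. Cav3 had to be high in these groups to enter the test, and without it 3 genes were higher on day 4 and 2 on day 8. Of the 4 genes called on day 4, 4 were also called in a fit of the day 4 and day 0 arrays of satellite cells alone, which leaves out the day 2 arrays. Endothelial cells had 1 gene lower on day 2 (Jam2), with 6.73% of all genes called and 3.01% lower. They had 1 higher and 1 lower on day 4 (Myof and Jam3), with 5.33% called, 3.11% higher and 2.22% lower, and 0 on day 8, with 2.05% called. At an unadjusted p under 0.05 the endothelial day 8 comparison held 2 of the 7 genes (Mymk and Myof).

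Between days after injury, 4 genes were higher on day 4 than on day 2 in satellite cells (Mymk, Cdh15, Jam3 and Cav3, with 10.5% of all genes called and 4.79% higher) and 0 were called between days 8 and 4 (1.68% of all genes), where 2 of the 7, Cdh15 and Myof, had an unadjusted p under 0.05. Satellite against endothelial cells gave 2 genes higher and 2 lower on day 0, where 17% of all genes were called, 7.59% higher and 9.43% lower. On day 2 there were 1 higher and 3 lower (12.1%, 5.82% and 6.31% of all genes), on day 4 3 higher and 2 lower (12.9%, 5.2% and 7.73%), and on day 8 3 higher and 2 lower (13.9%, 7.05% and 6.88%). Dysf and Jam2 were lower in satellite cells in each of the 4 comparisons. The difference in response was called lower for Cdh15 on day 2, with 11.5% of all genes called and 5.03% lower. It was called higher for Mymk and Cav3 on day 4 (4.24% of all genes called, 2% higher) and day 8 (2.2% called, 1.39% higher). Cav3 is among the genes counted as higher in satellite cells on days 4 and 8 here too, and nothing is read from these counts on its account. The comparisons with day 0 within a cell type share the same 3 arrays of day 0.

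**Figure D3:**
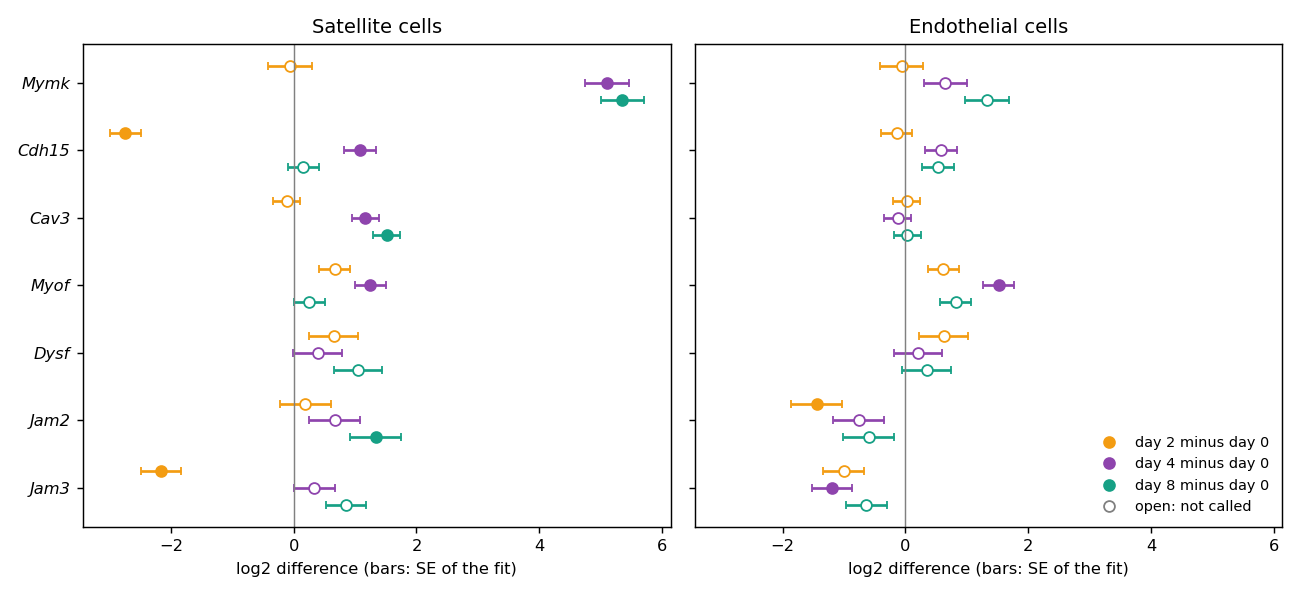
Differences in log2 value from day 0 on days 2, 4 and 8 (horizontal axis) are plotted for the 7 genes in satellite cells (left) and endothelial cells (right), each from 3 arrays against 3, with bars for the standard error of the fit. Filled points were called and open points were not; the day 4 and day 8 differences of Mymk in satellite cells, 5.10 and 5.35, exceed all others.

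Within satellite cells the closest values on the 12 arrays were those of 3 pairs of members. Mymk and Cav3 correlated at r = 0.94, Cdh15 and Jam3 at r = 0.87 and Dysf and Jam2 at r = 0.80, with lowest values of 0.94, 0.81 and 0.76 on leaving out each array in turn. Members of different pairs correlated too, Mymk and Jam3 at r = 0.72, Jam3 and Cav3 at r = 0.71 and Mymk and Cdh15 at r = 0.67, and Myof belonged to no pair, with its highest value at r = 0.37, with Mymk. These arrays share 4 days and so are not independent points, and no test was made. Within endothelial cells Jam2 and Jam3 correlated at r = 0.75, Mymk and Cdh15 at r = 0.71 and Myof and Jam3 at r = -0.74. Dysf and Jam2 correlated at r = -0.70 there, with the opposite sign to that in satellite cells. The mean of 9 differentiating myocyte markers followed Mymk (r = 0.98) and Cav3 (r = 0.91) over the satellite cell arrays. Of these 9 markers 9 rose on day 4 and 8 on day 8, where 6.53% and 4.38% of all genes were called higher. The fixed list has 10 genes, and Myh8 was too dim to enter the test (means of 2.99, 3.28 and 4.08 on days 0, 4 and 8). Myh3 had satellite cell means of 2.71 and 2.92 on days 0 and 2 and of 6.53 on day 4. It entered only through satellite cell arrays of days 4 and 8, and nothing is read from these counts on its account.

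The genes whose values were most like those of each member over the 12 satellite cell arrays were taken from all genes tested. For Mymk they were Myog (r = 0.99), the imprinted RNA H19 (0.98) and Neb (0.97), which encodes the thin filament protein nebulin. For Cav3 they were Tnni1 (0.95), a slow muscle troponin, Myog (0.95) and Mymk (0.94). For Cdh15 they were Asb5 (0.99), Scd2 (0.97), a fatty acid desaturase, and Peg3os (0.97). For Jam3 they were Mxd4 (0.98), the transcription factor Tead1 (0.96) and Megf10 (0.96), a receptor of satellite cells.

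For Myof the most alike were Capn2 (r = 0.94), a calpain protease, Wdr45b (0.93) and Anxa1 (0.91), a calcium-dependent membrane-binding annexin. For Dysf they were Fam43a (0.94), Vsig2 (0.92) and Fabp4 (0.90), a fatty acid carrier of fat and capillary cells. For Jam2 they were C130074G19Rik (0.95), Clec14a (0.91), an endothelial surface lectin, and Map4 (0.90). Over the 12 endothelial arrays Jam2 was most like Cd200 (0.98), Itga1 (0.97) and Fmo2 (0.97), Jam3 like Epc1 (0.92), Zfp715 (0.92) and Prkch (0.91), and Myof like C1qc (0.95), a complement gene of macrophages, Cxcl10 (0.93) and Sirpa (0.92). No p is given for these values, the highest among all genes.

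Other genes of the same processes were followed in 6 lists with 78 genes, of which 66 were tested. In satellite cells 10 of the 66 rose and 20 fell on day 2, 9 rose and 5 fell on day 4, and 10 rose and 3 fell on day 8, where 20.5%, 12% and 6.38% of all genes tested were called on days 2, 4 and 8. The median differences of the 66 were -0.23, 0.029 and 0.11, against -0.028, 0.014 and -0.0064 for all genes tested. In endothelial cells 6 rose and 4 fell on day 2, 6 rose and 4 fell on day 4, and 3 rose and 0 fell on day 8 (6.73%, 5.33% and 2.05% of all genes called), with medians of -0.13, 0.019 and 0.031, against -0.011, -0.018 and -0.0023 for all genes.

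Among 9 fusogens and fusion receptors tested, Mymx, which encodes myomixer, the partner of myomaker, rose in satellite cells by 1.90 on day 4 (SE 0.26, adjusted p = 2.25e-05) and 1.88 on day 8 (adjusted p = 5.71e-05). Il4ra, the interleukin-4 receptor chain, rose by 3.33, 1.72 and 1.37 on days 2, 4 and 8, and Adam12, a membrane metalloprotease, rose by 1.55 on day 8. On day 2 Ptgfrn and Kirrel fell by 1.79 and 1.70. The list had 1 gene higher and 3 lower on day 2, 2 and 0 on day 4, and 3 and 0 on day 8. Of all genes tested 20.5%, 12% and 6.38% were called either way on these days. The Adam12 call was lost without satellite cell day 0 replicate 3 (1.22) or satellite cell day 8 replicate 3 (1.46) and in the fit of the 12 satellite cell arrays (adjusted p = 0.0596), that of Ptgfrn without satellite cell day 0 replicate 1 (-1.45) or satellite cell day 2 replicate 1 (-1.52), and that of Il4ra on day 8 in the fit of the 2 groups alone (adjusted p = 0.0553). Leukocytes express Il4ra as well, and the leukocyte list averaged 9.22 to 10.78, 6.72 to 7.81 and 4.96 to 6.21 on the satellite cell arrays of days 2, 4 and 8, against 3.52 to 4.02 on day 0; its part was not tested.

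Of 16 cadherins, catenins and adhesion receptors 1 rose and 9 fell in satellite cells on day 2, 1 rose and 2 fell on day 4, and 0 rose and 2 fell on day 8. Of all genes 20.5% were called on day 2, with 9.67% of all genes called lower, 12% on day 4 and 6.38% on day 8. Ncam1, the neural cell adhesion molecule, fell by 3.58 on day 2, and Cdon, a co-receptor that associates with cadherins, fell by 3.46. Itga4, an integrin chain of leukocytes and myoblasts, rose by 3.19, where the leukocyte markers rose as well. Its satellite cell mean was 3.86 on day 0, below the array medians, so it may have entered the test through groups in which it was high. Cdh2, which encodes N-cadherin, rose 3.33-fold on day 4 (log2 1.74, SE 0.30, adjusted p = 0.000362), the same day on which Cdh15 was highest. Cdh4 fell by 1.36 on day 4 and 1.36 on day 8, and Boc, a relative of Cdon, by 1.32 and 1.15. The Boc call of day 8 was lost without satellite cell day 0 replicate 2 (-1.19) or 3 (-0.90) or satellite cell day 8 replicate 2 (-1.06) or 3 (-1.14) and in the fit of the 2 groups (adjusted p = 0.0597).

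Of 4 genes of the junctional adhesion molecule family and its partners tested, F11r, which encodes the relative JAM-A, rose by 1.55 in satellite cells on day 2, and Pard3, a polarity protein that binds these molecules, and Tjp1 fell by 1.69 and 1.07. None of the 4 was called on day 4 or day 8. The share of all genes called either way was 20.5% on day 2, 12% on day 4 and 6.38% on day 8. The Tjp1 call was lost without satellite cell day 0 replicate 2 (-0.9998) or 3 (-1.02) or satellite cell day 2 replicate 1 (-0.73) or 3 (-0.80), after shifting arrays to a common median (-0.991), and in the fits of the cell type (adjusted p = 0.0934) and of the 2 groups (adjusted p = 0.181). That of F11r was lost in the fit of the 2 groups (adjusted p = 0.0568).

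Of 12 genes of the ferlin and membrane repair list, 2 rose and 1 fell in satellite cells on day 2, where 20.5% of all genes were called either way. On each of days 4 and 8, 5 rose and 0 fell, where 6.53% and 4.38% of all genes were called higher. Ano5, an anoctamin of muscle, rose by 3.73 on day 4 (SE 0.26, adjusted p = 3.65e-09) and 2.36 on day 8. Ehd4 rose by 2.65, 1.99 and 1.23 on days 2, 4 and 8, and Anxa2, an annexin, by 1.47 on day 2 and 1.69 on day 4. Trim72, which encodes the membrane repair protein MG53, rose by 1.42 on day 8. Ano5 and Trim72 had satellite cell means of 3.51 and 3.50 on day 0, below the array medians. They may have entered the test through groups in which they were high, and nothing is read from the counts of list genes on their account. Anxa6 fell by 1.16 on day 2. The Anxa6 difference was -0.94 without satellite cell day 2 replicate 1, under the limit of 1, and the Trim72 call was lost in the fits of the cell type (adjusted p = 0.0552) and of the 2 groups (adjusted p = 0.0996).

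Of 8 caveolar genes 1 rose and 3 fell in satellite cells on day 2, 1 rose and 3 fell on day 4, and 1 rose and 1 fell on day 8. All genes tested were called either way at 20.5%, 12% and 6.38% on these days. Cavin4, a cavin of muscle, rose by 4.26 on day 4 (SE 0.60, adjusted p = 3.33e-05) and 2.99 on day 8, the days on which Cav3 rose. The satellite cell mean of Cavin4 was 2.99 on day 0, below the array medians. It may have entered the test through groups in which it was high, and nothing is read from the counts of list genes on its account. Pacsin3 fell by 2.35, 1.76 and 1.71 on days 2, 4 and 8, and Cavin2 by 2.03 and 1.39 on days 2 and 4. Cavin4 also rose on day 2 (1.90), a call lost without satellite cell day 0 replicate 2 (1.67) or satellite cell day 2 replicate 2 (1.33) and with array weights (adjusted p = 0.0516). The Pacsin3 call of day 8 was lost without satellite cell day 8 replicate 1 (-1.24) or 3 (-1.40) and in the fits of the cell type (adjusted p = 0.0743) and of the 2 groups (adjusted p = 0.157). The mature myofibre markers given beside Cav3 moved with the day 8 values here as well, and their part was not tested.

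Of 17 genes of the Rac and actin pathway of fusion 4 rose and 2 fell on day 2 in satellite cells, 0 were called on day 4 and 1 rose on day 8. The shares of all genes called either way were 20.5%, 12% and 6.38% on these days. Elmo1, a partner of Dock guanine nucleotide exchange factors, rose by 2.46 on day 2 and 1.58 on day 8, Dock5 rose by 1.36 on day 2, and Nckap1, a subunit of the WAVE complex, fell by 1.47. The Dock5 difference was 0.94 without satellite cell day 2 replicate 1, and in the fit of the 2 groups the calls of Dock5 (adjusted p = 0.0527), Nckap1 (adjusted p = 0.0792) and Elmo1 on day 8 (adjusted p = 0.0555) were lost.

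**Figure D4:**
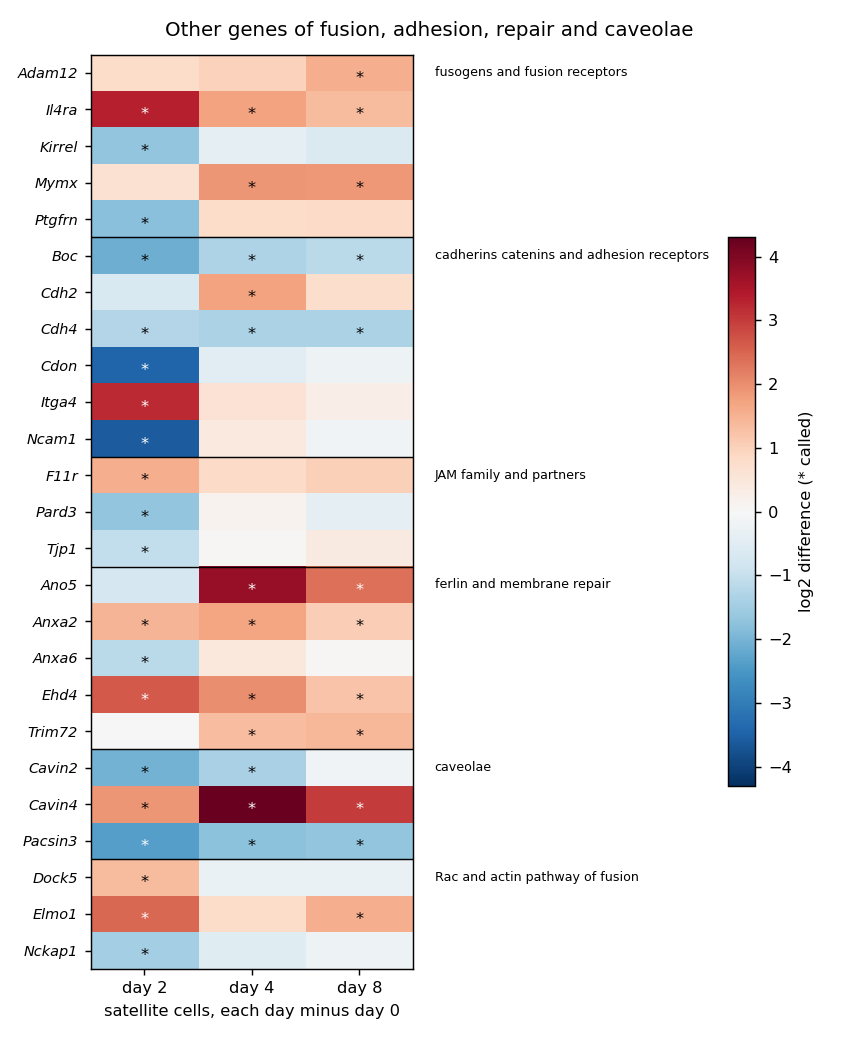
Colour gives the log2 difference of satellite cells on days 2, 4 and 8 from day 0 for the genes named from the 6 lists, each value from 3 arrays against 3, and stars mark called differences. Mymx, Ano5, Cavin4 and Cdh2 were higher on day 4, by 1.90, 3.73, 4.26 and 1.74, and Ncam1 and Cdon were lower on day 2, by -3.58 and -3.46.

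In endothelial cells Anxa1 rose by 1.61, 2.02 and 1.90 on days 2, 4 and 8, Anxa2 by 1.16 on day 2, Ehd4 by 1.62 on day 4, Il4ra by 1.19 on day 2 and Vcam1, an adhesion molecule of activated endothelium, 3.42-fold on day 4 (log2 1.78). Adam12 rose by 1.45, 1.70 and 1.72 on the 3 days, Itga3 by 1.12 on day 2 and 1.47 on day 4, and Anxa6 by 1.06 on day 8. Cavin2 fell by 1.26 on day 2 and 1.15 on day 4, Pacsin3 by 1.42 and Itga7 by 1.05 on day 2. Of these calls, Anxa2 was lost without endothelial day 0 replicate 3 (0.96), Itga3 on day 2 without endothelial day 2 replicate 1 (1.01) and Cavin2 on day 2 without endothelial day 2 replicate 2 (-1.16). Adam12 lost its call without endothelial day 0 replicate 2 or 3 or endothelial day 2 replicate 2 or 3 on day 2 (1.21 to 1.44), and without endothelial day 0 replicate 2 or 3 or endothelial day 8 replicate 1 or 2 on day 8 (1.61 to 1.71).

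Itga7 lost its call without endothelial day 0 replicate 1 or 2 or endothelial day 2 replicate 2 (-0.874 to -0.998), and Pacsin3 without any 1 of the 6 endothelial arrays of days 0 and 2 (-1.29 to -1.50) and without a filter on dim probe sets (adjusted p = 0.052). Cavin2 on day 4 lost it without endothelial day 0 replicate 1 or 2 or endothelial day 4 replicate 1 or 2 (-1.07 to -1.17), and Anxa6 without endothelial day 0 replicate 1, 2 or 3 or endothelial day 8 replicate 1 (0.72 to 1.17), after shifting arrays to a common median (0.977) and in the fits of the cell type (adjusted p = 0.0768) and of the 2 groups (adjusted p = 0.166). Leukocyte markers were above day 0 in endothelial cells on these days as well, with 7, 7 and 2 of 12 called higher on days 2, 4 and 8, and their part was not tested. The shares of all genes called either way were 6.73%, 5.33% and 2.05%. On day 2 Jam2 and Cavin2 fell in endothelial cells, and the 10 endothelial markers had 1 called lower and a median difference of -0.16. Over the 12 endothelial arrays Jam2 correlated with the endothelial list at r = 0.75. Cavin2 fell in satellite cells on day 2 too, by 2.03. The part of endothelial signal in these falls was not tested.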

How the data were processed

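Total RNA of sorted satellite and endothelial cells was amplified, labelled with biotin and hybridised to MoGene arrays, per the labels' protocols. The authors summarised the arrays with RMA, per the submitters' processing notes, and deposited the resulting log2 values; the RMA version and the genome build are not given in the sources used here. The table has 24479 probe sets, of which 23281 had 1 gene symbol in the platform annotation. These values were used as deposited.

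A model with 1 mean for each of 8 groups was fitted to 24 arrays with limma 3.58.1 (R 4.3.3), with 16 residual degrees of freedom, after a filter that kept 14064 genes. The test was checked on simulated data. Replicates are labelled biological. Replicate numbers shared between the cell types were not taken to pair the samples, since the labels give no shared animal and 4 of 12 same-numbered pairs correlated above 0.1 (r from -0.06 to 0.20).

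The 7 genes, the gene lists and the marker lists were chosen with earlier results of these data known. Named from the lists were the up to 3 called genes with the largest difference per list and day in satellite cells and up to 2 in endothelial cells, and for each member the 3 genes with the highest correlation. Comparisons between days 4 and 2 and days 8 and 4 were added after seeing the data. Alternatives covered the filter, scaling, arrays in the fit, variance model, array weights, a replicate block and each array left out. Promoter windows are RefSeq's (GRCm38.p6), 250 bases before the start site.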

Additional observations from a re-analysis of the deposited data

Results flagged for a closer look

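In 5 comparisons the change from day 0 itself differed between satellite and endothelial cells, by the test of that difference in limma. The Cdh15 response on day 2 was lower in satellite cells by 2.60 on the log2 scale (satellite minus endothelial -2.60, SE 0.36, adjusted p = 8.52e-05), with 3 of 3 satellite cell arrays of day 2 below those of day 0. The Mymk response was larger in satellite cells by 4.45 on day 4 (SE 0.50, adjusted p = 1.09e-05) and 4.03 on day 8 (SE 0.50, adjusted p = 8.95e-05). The Cav3 response was larger by 1.29 on day 4 (SE 0.31, adjusted p = 0.0187) and 1.48 on day 8 (SE 0.31, adjusted p = 0.0119). Cav3 entered the test only through its satellite cell arrays of days 4 and 8, and without that filter on low values the adjusted p was 0.0176 and 0.0108. The satellite cell arrays of days 4 and 8 lay above those of day 0 without overlap for both genes. Beside the Cdh15 value stand the low satellite cell markers (5.25 to 5.52 on day 2, against 8.81 to 8.97 on day 0) and the high leukocyte markers (9.22 to 10.78, against 3.52 to 4.02) of the same arrays, whose part was not tested.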

How the results depend on the processing

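Over 105 results of the 7 genes and 3275 combinations of a result and a setting, 3201 kept their direction and their side of the threshold, 41 lost a call, 33 gained one and 0 reversed. The number of members called in satellite cells on days 2 and 4 against day 0 held under each alternative run to within 1.5 times. In the replicate block (consensus correlation 0.041) no call of the 7 genes changed: the members called on satellite cell day 4 numbered 4, as reported, and the genes called over all were 1691, against 1687 without the block. Of 24 arrays 12 correlated best, within the 3 arrays of the other cell type on that day, with the one of their own number, where 3 equally likely numbers give 8. This is a hint from the data, not from the design. Fitting the arrays of the 2 groups alone gave 5 higher and 1 lower list genes on satellite cell day 8 (reported 10 and 3), 2 members on endothelial day 2 (reported 1), 1 on endothelial day 4 (reported 2) and 1 lower list gene on endothelial day 8 (reported 0), as did the 12 arrays of the cell type (1). Array weights gave 1 lower list gene and 1 member on endothelial day 8 (reported 0), 2 members in the difference of responses on day 2 (reported 1) and 1 between satellite cell days 8 and 4 (reported 0). The filter at the 75th percentile, which drops Cav3, gave 2 members on endothelial day 2, 1 on endothelial day 8, and 1 in the difference of responses on day 4 and 1 on day 8 (reported 2 each). Without a filter 2 list genes were lower on endothelial day 2 (reported 4).

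Leaving out 1 array gave 0 to 2 members on endothelial day 2, 1 to 2 on day 4 and 0 to 1 on day 8, 0 to 1 between satellite cell days 8 and 4, and 1 to 2 and 1 to 3 in the difference of responses on days 2 and 4. List genes lower ranged from 1 to 3 on satellite cell day 8 and from 1 to 5, 1 to 5 and 0 to 1 on endothelial days 2, 4 and 8, and list genes higher from 3 to 6 on endothelial day 2 and 1 to 3 on day 8. Over all genes, fits of the 2 groups called 581 on satellite cell day 8 (reported 897), 785 between the cell types on day 2 (reported 1706), 635 between satellite cell days 4 and 2 (reported 1483) and 56 between days 8 and 4 (reported 236, 81 with 12 arrays, 412 with array weights, 110 to 368 without 1 array). Array weights called 459 on endothelial day 8 (reported 289, 162 to 182 without endothelial day 0 replicate 1 or 2 or day 8 replicate 2 or 3) and 2443, 1047 and 512 in the difference of responses on days 2, 4 and 8 (reported 1614, 596 and 310; day 8 gave 200 without satellite cell and 183 without endothelial day 8 replicate 3). The cause was not tested, except that fits of fewer arrays hold fewer samples. Shifting arrays to a common median moved the median of all genes by at most 0.16. A lower-mean probe set could not be tried, since each member has 1. With 3 arrays per group and Mymk, Cdh15 and Cav3 near the array median in some groups, small differences were not detectable.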
